A study of Homo sapiens with 24 samples.

Results

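Nonsense-mediated decay is the cytoplasmic pathway that destroys mRNAs whose stop codon lies well upstream of an exon junction. The data below describe 8 genes of this pathway, taken by name: the helicase gene UPF1, its partners UPF2, UPF3A and UPF3B, the kinase gene SMG1 with its regulator SMG9, and the effector genes SMG5 and SMG6. They are 8 of the 13236 genes with counts, and 213 of the 164219 counted gene segments (bins) belong to them. Of those 213 bins, 206 are exon bins (of 159450 in all) and 7 are detained introns (of 4769). A detained intron is one that stays in an otherwise spliced, polyadenylated transcript, which is then usually held in the nucleus.

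In the pathway, UPF1 gathers on the terminated mRNA, UPF2 and UPF3B link it to the exon junction complex left by splicing, and SMG1 phosphorylates it. SMG6 then cuts the mRNA near the stop codon, and SMG5 helps to bring in the enzymes that remove the tail and the cap. Several mRNAs that encode these factors are themselves known targets of the pathway, so their levels are known to move against its activity.

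RNA was sequenced from HEK293T cells, an established line derived from human embryonic kidney, grown as a monolayer in multi-well plates. For 2 h or 6 h, cells received the solvent DMSO, 10 µM OSMI-2 or 5 µM TMG. OSMI-2 blocks OGT, which places the sugar O-GlcNAc on proteins, and TMG blocks the enzyme that takes it off, encoded by MGEA5. Each drug and time has its own DMSO group, which gives 8 groups of 3 samples in the labels. All groups are the same cell line with no genetic change. Of the 24 samples, 23 had libraries in the tables used here. The OSMI-2 6 h group has 2 of them and is compared with 3 of DMSO, its remaining sample being not analysed here. Libraries are called a, b and c after their column names, and these letters carry no order. Nothing states that the libraries came from separate cultures, so p-values measure the spread between these libraries, which may be technical.

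The libraries held 39465746 to 100161560 counts. The OSMI-2 and TMG experiments differed in base composition and in position along the transcript. Across genes within a library, the slope of log2 CPM (counts scaled to library size) on transcript GC content was 0.877 to 1.22 per 10 percentage points in 10 of the 11 libraries of the OSMI-2 experiment. DMSO 6 h library a of that experiment stood apart at 0.43, and slopes in the TMG experiment ran from -0.278 to -0.609. Introns called detained took 0.756% to 1.21% of the counts in the DMSO 6 h group of the OSMI-2 experiment, and 0.232% to 0.328% in its other 3 groups. In the TMG experiment they took 0.377% to 0.669%. Replicates differed by more than sampling noise in all 22 pairs within groups (chi-square per degree of freedom 4.33 to 304.0). All 6 markers of HEK293T cells that were looked for had counts, with VIM at 305 to 817 CPM and NEFM lowest at 0.299 to 2.60. Of 5 markers of other cell types, COL1A1 alone had a value, at 6.09 to 23.6 CPM, and the other 4 were not analysed here.

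The detained introns lie in 6 of the 8 genes, and each is named here by its gene and bin number. Positions are on hg19, the build named in the submitters' processing notes. SMG1_E014 spans 2570 bases at chr16:18841692-18844261 on the minus strand. SMG5_E004 is the shortest, 330 bases at chr1:156220788-156221117, minus strand. SMG6 has a pair that flank a single 154-base exon: SMG6_E004, 3098 bases at chr17:1968974-1972071, and SMG6_E006, 12878 bases at chr17:1972226-1985103, both on the minus strand. SMG9_E008 spans 3101 bases at chr19:44238648-44241748, minus strand. UPF1_E017 is a bin of 1352 bases at chr19:18969778-18971129 on the plus strand, and is the last stretch of a 2787-base gap between exon bins. UPF2_E020 is the longest, 14560 bases at chr10:12056184-12070743, minus strand. The median detained intron was 1798 bases, so UPF2_E020 and SMG6_E006 stand at the 96.5th and 95.7th percentile of width and SMG5_E004 at the 9.86th. UPF3A and UPF3B have 12 and 11 exon bins and no detained intron.

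The exon junctions that form when these introns are removed are shown because the intron readings below are readings of these splicing steps. Each line gives the last 24 bases of the upstream exon joined to the first 24 of the downstream exon, 5′ to 3′, from GENCODE release 29 transcripts (GRCh38), matched to the introns by the widths of the flanking exon bins. Capitals mark the last 3 bases of the upstream exon and the first base of the downstream exon, which are the exon side of the 5′ and 3′ splice sites.
SMG1_E014: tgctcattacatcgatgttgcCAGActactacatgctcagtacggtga
SMG6_E004: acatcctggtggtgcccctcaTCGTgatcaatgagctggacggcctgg
SMG6_E006: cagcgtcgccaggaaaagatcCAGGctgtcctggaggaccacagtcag
SMG9_E008: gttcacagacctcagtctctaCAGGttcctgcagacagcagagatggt
UPF1_E017: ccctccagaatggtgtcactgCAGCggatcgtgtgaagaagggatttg
UPF2_E020: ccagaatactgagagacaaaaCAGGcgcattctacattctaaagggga
The 6 matched junctions all join coding exons. They join exons 51 and 52 of 63 in SMG1, 15 to 16 and 16 to 17 of 19 in SMG6, 9 and 10 of 14 in SMG9, 15 and 16 of 24 in UPF1, and 3 and 4 of 22 in UPF2. The upstream exon ends in CAG at 5 of the 6, the exception being SMG6_E004, which ends in TCG. Over all 247830 junctions of protein-coding transcripts, 23.8% end in CAG. This is a description of letters on the transcript strand. SMG5_E004 had no matching junction and is not shown.

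Each intron's level is given as its share of all counts of its gene. SMG9_E008 was the most retained of the 7. In the OSMI-2 experiment it held 3.90%, 4.19% and 3.59% of SMG9 counts in DMSO 2 h libraries a, b and c, and 17.1%, 12.7% and 10.4% in the DMSO 6 h libraries. In the TMG experiment it held 10.4%, 12.6% and 10.7% at 2 h and 8.79%, 13.7% and 10.6% at 6 h in DMSO. Its rank was 430 of 4310 detained introns in the first of these groups, 304 in the second, and 89 and 148 in the TMG experiment. The median over 4310 detained introns was 0.657% and 2.28% in the DMSO 2 h and 6 h groups of the OSMI-2 experiment, and 0.848% and 1.15% in those of the TMG experiment. UPF1_E017 was the lowest of the 7 in the DMSO 2 h group of the OSMI-2 experiment, at 0.171%, 0.257% and 0.233%. Per base the order was different: SMG5_E004, the shortest, held 5.92% of the median density of SMG5 exon bins in that group, SMG9_E008 2.77% and SMG6_E006 0.164%. Counts were low for some: SMG1_E014 had 4, 5 and 4 counts in those 3 libraries.

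After 6 h of OSMI-2, all 7 detained introns of the decay factors fell relative to their genes. The falls ran from -1.36 to -2.45 on the log2 scale, with a median of -2.11. Of all 4616 detained introns tested, 89.4% changed and 89.2% fell, with a median of -1.63, so a fall of nearly all members is what the background gives. Every OSMI-2 library was below every DMSO library for all 7, which was also the case for 91.6% of introns tested. These values are limma tests of log2((intron count + 1)/(gene count + 1)), adjusted over all introns.

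SMG9 encodes a regulator of the SMG1 kinase. SMG9_E008 held 17.1%, 12.7% and 10.4% of SMG9 counts in the DMSO 6 h libraries and 3.39% and 4.12% in the OSMI-2 libraries. The groups were far apart, and the fall was -1.81 (SE 0.23, limma adjusted p = 7.61e-14). UPF2 encodes the adaptor that binds UPF1. UPF2_E020 held 6.14%, 7.28% and 6.21% in DMSO and 1.36% and 0.928% in OSMI-2, the steepest fall of the 7 at -2.45 (SE 0.356, limma adjusted p = 5.26e-11). UPF1_E017 held 0.872%, 0.80% and 0.551% in DMSO and 0.192% and 0.145% in OSMI-2, a fall of -2.11 (SE 0.317, limma adjusted p = 2.17e-10).

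The kinase gene's intron, SMG1_E014, held 1.09%, 1.29% and 0.937% in DMSO and 0.154% and 0.292% in OSMI-2, and fell by 2.23 on the log2 scale (SE 0.379, limma adjusted p = 1.51e-08). SMG1 has near-identical copies elsewhere on its chromosome, and how reads that match several copies were counted is not given in the sources used here, so its values are uncertain. SMG5_E004 held 1.36%, 1.09% and 0.940% in DMSO and 0.299% and 0.424% in OSMI-2, a fall of -1.64 (SE 0.276, limma adjusted p = 1.01e-08).

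The SMG6 pair share the endonuclease gene's 154-base exon and so are not independent of each other. SMG6_E006, upstream of that exon, held 2.03%, 1.84% and 1.13% in DMSO and 0.328% and 0.355% in OSMI-2, a fall of -2.19 (SE 0.352, limma adjusted p = 2.37e-09). SMG6_E004, downstream of it, held 1.69%, 1.66% and 0.959% and then 0.468% and 0.607%, the smallest fall of the 7 at -1.36 (SE 0.348, limma adjusted p = 0.000139).

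**Figure D1:**
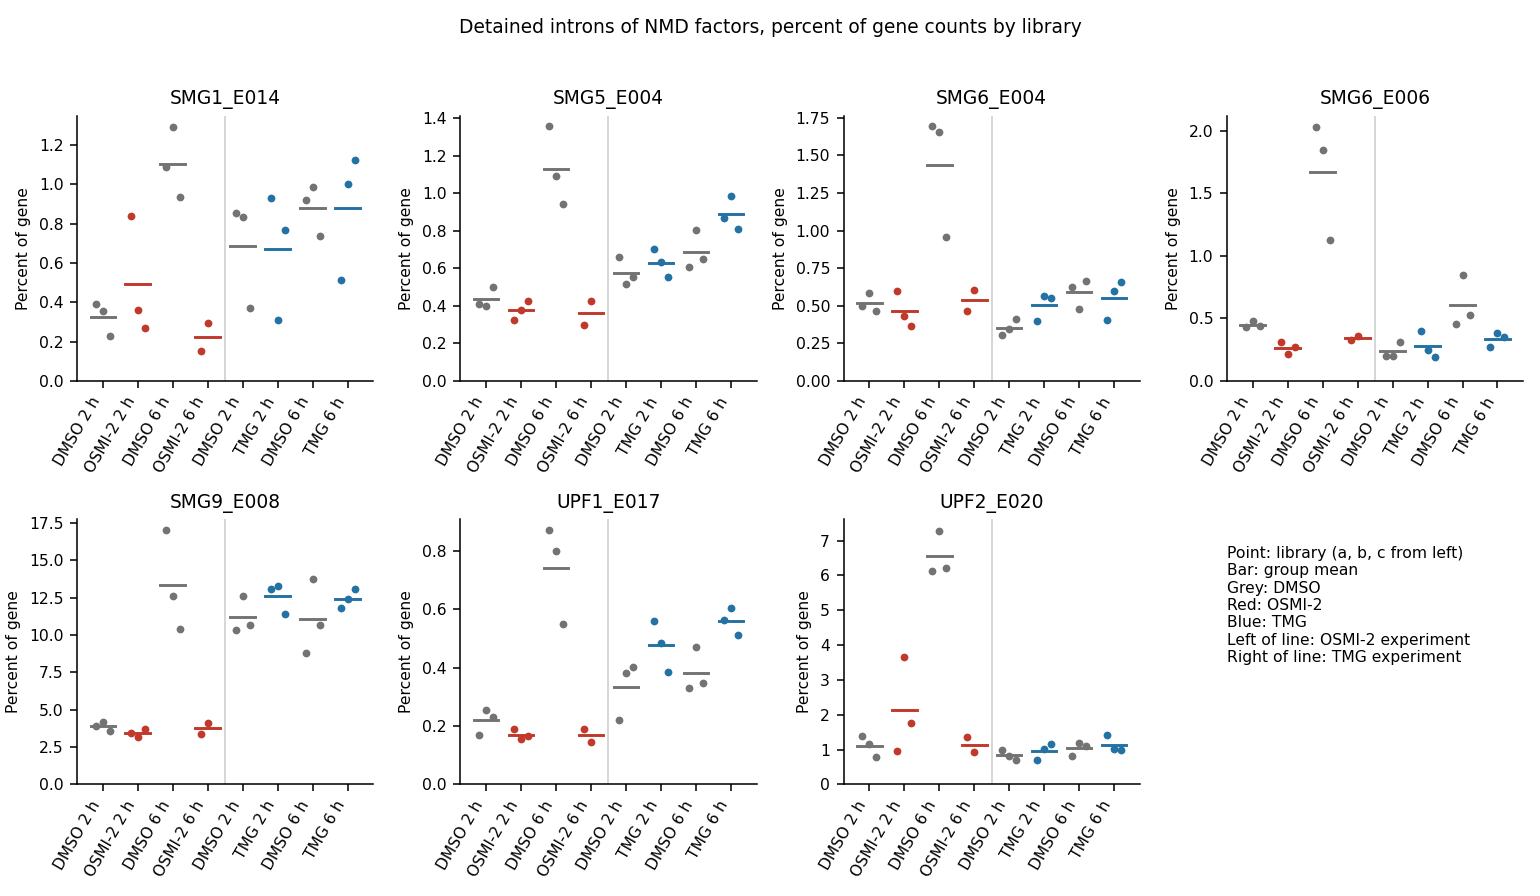
Intron counts as a percent of all counts of the gene (vertical axis, linear and starting at 0) for the 7 detained introns, with 1 point per library and a bar at each group's mean. In the OSMI-2 experiment the DMSO 6 h libraries lie above the libraries of the other 3 groups for all 7 introns, for SMG9_E008 at 10.4% to 17.1% against 3.19% to 4.19%.

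As levels in their own right (CPM, edgeR), the 7 introns also fell, by 0.83 for SMG6_E004 (edgeR adjusted p = 0.039) to 2.48 for UPF2_E020 on the log2 scale. The SMG6_E004 call did not hold with DESeq2 (adjusted p = 0.129), with median-of-ratios scaling (edgeR adjusted p = 0.0812) or in a fit of all libraries (edgeR adjusted p = 0.057). It was also lost without DMSO 6 h library b (-0.55, edgeR adjusted p = 0.23), OSMI-2 library a (-0.66, edgeR adjusted p = 0.227) or OSMI-2 library b (-1.05, edgeR adjusted p = 0.0797). Of 4677 introns tested, 86.9% changed and 86.3% fell, with a median of -1.55. SMG9_E008 stood at 10.6, 11.2 and 9.72 CPM in DMSO and 4.35 and 5.59 CPM in OSMI-2. In the authors' deposited table, 6 of the 7 have a log2 fold, from -1.38 to -2.48, and SMG1_E014 is listed without a fold at an adjusted p of 2.72e-10. Without DMSO 6 h library a, all 7 still passed relative to their genes, with falls of -1.22 to -2.50.

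The fall is read against a DMSO group that was itself high. Between DMSO at 2 h and DMSO at 6 h of the OSMI-2 experiment, all 7 introns rose relative to their genes: UPF2_E020 by 2.42, SMG6_E006 by 1.77, SMG9_E008 by 1.75, UPF1_E017 by 1.71, SMG1_E014 by 1.52, SMG6_E004 by 1.37 and SMG5_E004 by 1.36 on the log2 scale (limma adjusted p at most 0.000437). All 3 DMSO 6 h libraries were above all 3 DMSO 2 h libraries for each of the 7, as for 89.2% of introns. Of 4476 introns tested, 89.3% changed and 88% rose, with a median of 1.67. By CPM all 7 also rose, by 1.03 to 2.74 (edgeR), against 90.3% of 4472 introns changed. This comparison shares its DMSO 6 h libraries with the OSMI-2 6 h comparison, so the values are only set side by side. After 6 h of OSMI-2, UPF2_E020 averaged 1.15% ± 0.308 (SD, n = 2) against 1.11% ± 0.30 (SD, n = 3) in DMSO 2 h. SMG9_E008 averaged 3.75% ± 0.522 (SD, n = 2) against 3.89% ± 0.301 (SD, n = 3), and SMG6_E004 0.538% against 0.518%. The others averaged lower than in DMSO 2 h: SMG1_E014 0.223% against 0.325%, SMG5_E004 0.362% against 0.435%, SMG6_E006 0.342% against 0.448% and UPF1_E017 0.168% against 0.220%. Of these, only the libraries of SMG6_E006 did not overlap, at 12, 13 and 15 counts in DMSO 2 h and 14 and 24 in OSMI-2 6 h. The share of all introns without overlap was not computed for these 2 groups, so this is a description only. Time, medium and the DMSO 6 h libraries as such cannot be told apart.

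In the TMG experiment the same step in time moved the introns less. SMG6_E006 alone passed relative to its gene, with 0.204%, 0.200% and 0.308% at 2 h and 0.459%, 0.849% and 0.525% at 6 h in DMSO, a rise of 1.27 on the log2 scale (limma adjusted p = 0.0228). Of 4077 introns, 19.6% changed and 18.9% rose. It did not pass without DMSO 2 h library a or b (limma adjusted p 0.0865 and 0.0859), and without any 1 of the DMSO 6 h libraries its mean count was under 10 and it was not tested. By CPM, edgeR called 0 of 7 against 21.9% of 4095 introns, with 2 of the 7 at an unadjusted p under 0.05.

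At 2 h OSMI-2 moved no detained intron of these genes past the threshold. Of the 7, 6 had enough counts to be tested, and SMG1_E014 was the one left out. Relative to the gene, the changes ran from -0.76 to 0.68 on the log2 scale, and limma called 0 of 6, against 0.0643% of 3111 introns. By CPM, edgeR called 0 of 6 against 0.129% of 3107. In each fit 1 of the 6 reached an unadjusted p under 0.05, and DESeq2 called 0. SMG6_E006 had the lowest value, with 0.429%, 0.476% and 0.439% in DMSO and 0.310%, 0.216% and 0.270% in OSMI-2, groups that do not overlap (as for 6.59% of introns in that direction). UPF2_E020 had the highest, with 1.38%, 1.16% and 0.784% in DMSO and 0.954%, 3.67% and 1.78% in OSMI-2, where library b carries the difference and the groups overlap.

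After 2 h of TMG no detained intron of these genes passed the threshold, a count near what the background gives for 6 introns. Limma called 0 of the 6 tested relative to the gene (SMG6_E006 had too few counts), with 1 at an unadjusted p under 0.05, against 10.2% of 4031 introns. By CPM, edgeR called 0 of 6, with 0 at an unadjusted p under 0.05, against 9.81% of 4056, and DESeq2 called 0. The changes relative to the gene ran from -0.086 to 0.53, with 5 of 6 above 0 and a median of 0.17. UPF1_E017 had the highest, with 0.222%, 0.383% and 0.401% in DMSO and 0.560%, 0.486% and 0.386% in TMG (0.53, SE 0.223, limma adjusted p = 0.108), and its groups overlap. SMG9_E008 stood at 10.4%, 12.6% and 10.7% in DMSO and 13.1%, 13.3% and 11.4% in TMG. It was already high in DMSO, and the groups overlap.

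After 6 h of TMG, limma called 0 of 6 introns (1 at an unadjusted p under 0.05) against 0.191% of 4181, and edgeR 0 of 7 (1 at an unadjusted p under 0.05) against 0.19% of 4219. DESeq2 called 0. UPF1_E017 had 0.331%, 0.470% and 0.347% in DMSO and 0.563%, 0.606% and 0.512% in TMG, a difference of 0.56 (limma adjusted p = 0.87). SMG5_E004 had 0.605%, 0.803% and 0.649% in DMSO and 0.867%, 0.985% and 0.807% in TMG, a difference of 0.37. In these 2 introns every TMG library lay above every DMSO library, which held for 8.16% of introns in that direction. SMG6_E006, too low in counts to be tested relative to its gene, went the other way: 0.235, 0.359 and 0.254 CPM in DMSO and 0.125, 0.176 and 0.165 CPM in TMG (6 to 16 counts per library). All its TMG libraries were lower, and its difference of -0.86 was the largest of the 7 by CPM and the 1 under an unadjusted p of 0.05 (edgeR adjusted p = 0.626). Among introns tested relative to their gene, 1.32% had all TMG libraries lower.

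Whether the drugs differed in their effect was tested as an interaction. At 6 h the OSMI-2 effect was below the TMG effect for 7 of 7 introns relative to the gene (-1.26 for SMG6_E004 to -2.66 for UPF1_E017, limma), against 85.6% of 4514 introns called and 85.6% lower. By CPM it was below for 5 of 7 with edgeR, SMG6_E004 and SMG6_E006 missing the threshold, against 74.2% of 4677 called and 73.7% lower. The SMG9_E008 difference by CPM was -0.47 without DMSO 6 h library a of the OSMI-2 experiment (edgeR adjusted p = 0.163) and -0.75 without OSMI-2 library a (edgeR adjusted p = 0.0604). The SMG6_E004 difference relative to its gene was -1.09 without OSMI-2 library a (limma adjusted p = 0.0762). At 2 h limma called 0 of 7 introns (1 at an unadjusted p under 0.05) against 0.13% of 3842, and edgeR 0 of 7 (0 at an unadjusted p under 0.05) against 0.255% of 4306. The drugs were given at different doses in separate experiments with their own DMSO libraries.

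**Figure D2:**
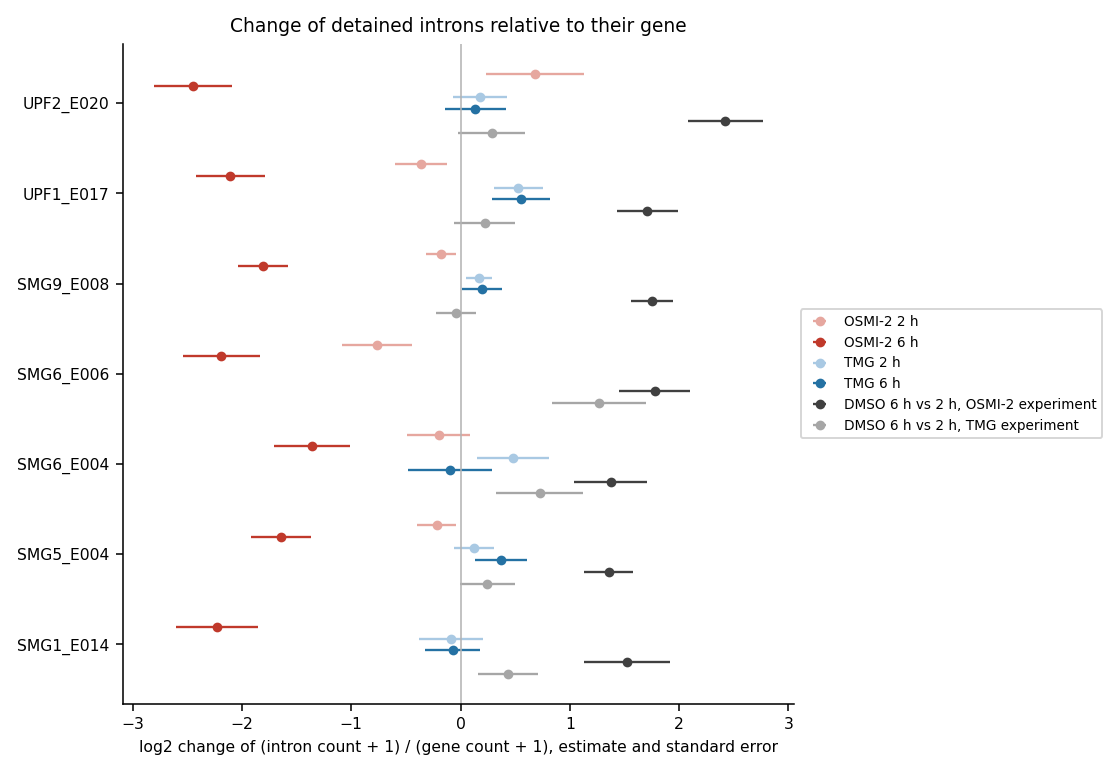
Log2 change of each detained intron relative to its gene in each comparison (points, with standard errors as bars). The OSMI-2 6 h values lie between -1.36 and -2.45, and the DMSO 6 h against 2 h values of the OSMI-2 experiment lie between 1.36 and 2.42.

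At the level of whole genes, counts per kilobase of exon give an order within each library group. In DMSO 2 h of the OSMI-2 experiment the mean of each gene's median exon bin was 85.3 CPM per kb for SMG5, 58.8 for UPF1, 40.8 for SMG9, 21.7 for UPF3B, 13.1 for SMG6, 2.63 for UPF2, 2.17 for UPF3A and 0.764 for SMG1. UPF2 and UPF3A were neighbours whose libraries overlapped, and the other neighbours did not overlap. In DMSO 2 h of the TMG experiment UPF1 led at 60.8 CPM per kb, then SMG5 at 53.4, UPF3B at 31.2, SMG9 at 23.96, UPF2 at 14.8, SMG6 at 13.9, SMG1 at 7.44 and UPF3A at 3.54, with overlap between UPF2 and SMG6 only. The GC-rich genes UPF1, SMG5, SMG9 and SMG6 (55.9% to 59.6% GC) filled 4 of the top 5 places in the first experiment. SMG1, UPF2 and UPF3B are at 41.5% to 42.3%. SMG1 stood at 21.5, 31.9 and 33.0 CPM in the first of these groups and at 106, 123 and 127 CPM in the second, each scaled within its own comparison. The part of GC content in this shift was not tested.

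OSMI-2 for 6 h moved none of the 8 genes past the threshold, against 4.94% of 12484 genes. In edgeR 2 of the 8 reached an unadjusted p under 0.05, and DESeq2 called 0. UPF1, the helicase, stood at 207, 333 and 319 CPM in DMSO and 459 and 480 CPM in OSMI-2. Both OSMI-2 libraries lie above all 3 DMSO libraries, library a of DMSO is the lowest, and the difference was 0.71 on the log2 scale (SE 0.324, edgeR adjusted p = 0.165). SMG9 stood at 62.1, 88.3 and 93.2 CPM in DMSO and 129 and 136 CPM in OSMI-2, a difference of 0.70 (SE 0.297, edgeR adjusted p = 0.134).

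SMG6, the endonuclease, stood at 50.1, 67.3 and 66.9 CPM in DMSO and 89.4 and 90.5 CPM in OSMI-2 (0.55). SMG5 stood at 319, 455 and 476 CPM and then at 554 and 521 CPM (0.37). In these 4 genes the OSMI-2 libraries were all above the DMSO libraries, as in 32.2% of 12414 genes. UPF3A stood at 12.7, 8.40 and 8.61 CPM in DMSO and 7.20 and 7.35 CPM in OSMI-2, all below, as in 15% of genes, and its difference of -0.45 did not pass (edgeR adjusted p = 0.477).

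The other 3 genes overlapped between the groups. SMG1 stood at 107, 54.4 and 62.5 CPM in DMSO and 67.9 and 73.3 CPM in OSMI-2 (-0.078). UPF2 stood at 28.2, 13.3 and 12.8 CPM and then at 18.4 and 18.8 CPM (0.038). UPF3B stood at 57.4, 31.3 and 36.4 CPM and then at 42.4 and 51.1 CPM (0.17). In all 8 genes DMSO library a lies at one end of its group: lowest in UPF1, SMG5, SMG6 and SMG9, and highest in UPF2, UPF3A, UPF3B and SMG1. The first 4 are the most GC-rich of the 8, and this library had the smallest GC slope of its experiment. The part of GC content in these positions was not tested.

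Without DMSO 6 h library a, 5 of the 8 genes passed and were higher after OSMI-2: UPF1 by 0.57, SMG9 by 0.59, UPF2 by 0.56, UPF3B by 0.51 and SMG6 by 0.47 on the log2 scale (edgeR adjusted p 0.00564, 0.0058, 0.0118, 0.0218 and 0.0138). In that fit 42.4% of 12435 genes passed and 34.2% were higher. With the GC trend of each library removed, SMG6 (0.63, edgeR adjusted p = 0.0313) and SMG9 (0.71, edgeR adjusted p = 0.0258) passed, beside 28% of all genes called and 23.6% called higher. In that fit UPF1, SMG5, UPF3B, UPF2 and SMG1 lay at 0.65, 0.37, 0.43, 0.37 and 0.21, none past the threshold. UPF3A lay at -0.044 with the GC trend removed and at -0.18 without DMSO 6 h library a. The median of all genes was 0.15 on the main scale and moved to -0.088 with a scaling on genes alone and to 0.30 with a median-of-ratios scaling. UPF2 (-0.21) and UPF3B (-0.079) turned negative under the scaling on genes alone, and SMG1 (0.10) turned positive under the median of ratios. UPF1, SMG5, SMG6 and SMG9 stayed positive under each.

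**Figure D3:**
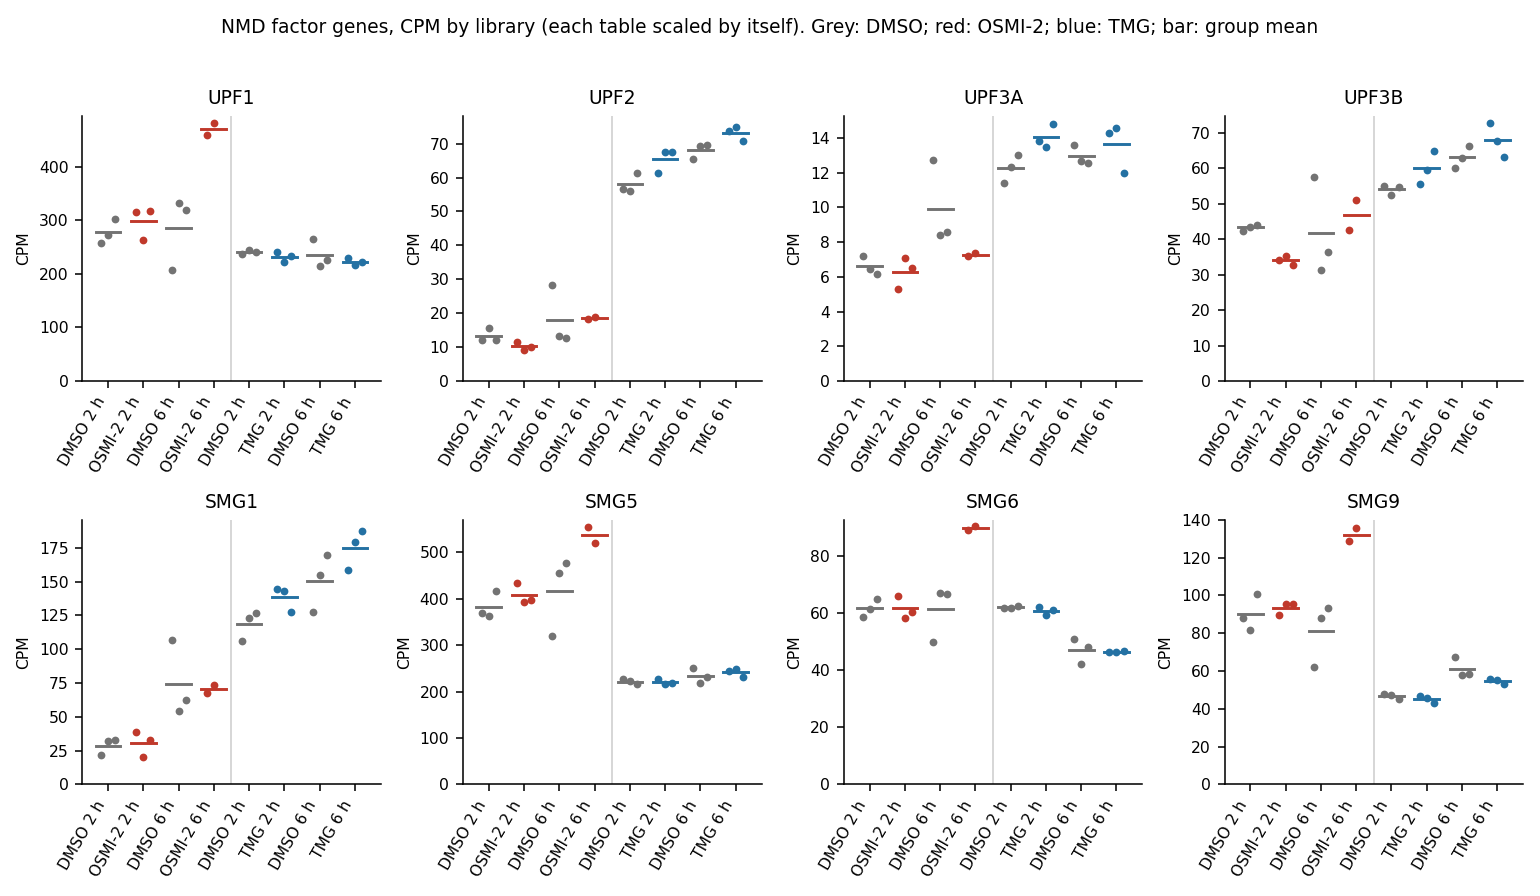
Gene level in CPM (vertical axis, linear and starting at 0) for the 8 genes, 1 point per library with a bar at each group's mean. In the DMSO 6 h group of the OSMI-2 experiment library a is lowest for UPF1 at 207 CPM and highest for SMG1 at 107 CPM.

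**Figure D4:**
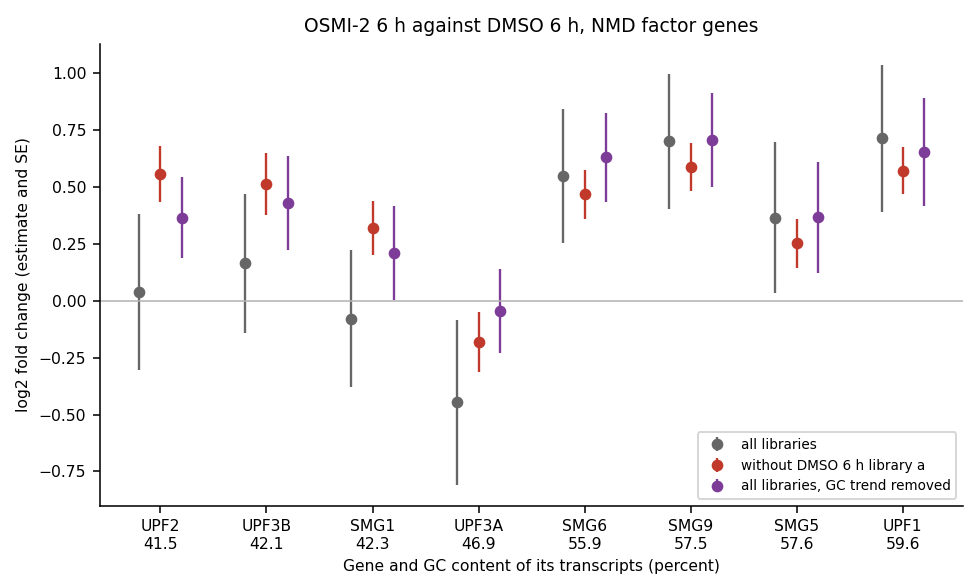
Log2 fold change of each gene after 6 h of OSMI-2 (vertical axis, estimate and SE) with all libraries, without DMSO 6 h library a and with the GC trend removed, the genes ordered by GC content. UPF1 lies at 0.71 with all libraries and at 0.57 without that library, and UPF2 at 0.038 and 0.56.

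OSMI-2 for 2 h left all 8 genes within the threshold. In edgeR 0 of 8 passed, 2 of 8 reached an unadjusted p under 0.05, DESeq2 called 0, and 0% of all 12343 genes passed. The 2 were UPF2, at 12.2, 15.6 and 12.1 CPM in DMSO and 11.5, 9.20 and 10.1 CPM in OSMI-2 (-0.38), and UPF3B, at 42.4, 43.4 and 44.0 CPM and then 34.1, 35.2 and 32.6 CPM (-0.35). Both have all OSMI-2 libraries below all DMSO libraries, as in 2.1% of genes, at an edgeR adjusted p of 0.9996.

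After 2 h of TMG, SMG1 rose and was the only one of the 8 to pass, against 7.91% of 12361 genes called and 1.25% called higher. It stood at 106, 123 and 127 CPM in DMSO and 144, 143 and 128 CPM in TMG, a rise of 0.22 on the log2 scale (SE 0.0609, edgeR adjusted p = 0.024, DESeq2 adjusted p = 0.0228). The closest libraries are 127 and 128 CPM, so the groups are apart by little, and 8.13% of genes had all TMG libraries above DMSO. Its call was lost without DMSO 2 h library a (0.14, edgeR adjusted p = 0.12) or TMG library b (0.20, edgeR adjusted p = 0.139). Without TMG library a it was lost too (0.18, edgeR adjusted p = 0.101), and it was lost with the GC trend removed (0.16, edgeR adjusted p = 0.147). The UPF2 difference was 0.17 (edgeR adjusted p = 0.0633), with 56.8, 56.1 and 61.5 CPM in DMSO and 61.3, 67.4 and 67.4 CPM in TMG. UPF3A and UPF3B differed by 0.19 and 0.15, and UPF1, SMG5, SMG6 and SMG9 by -0.056 to -0.0048, with none past the threshold. UPF3A and UPF3B also had all TMG libraries above DMSO, which with SMG1 makes 3 of the 8, beside the 8.13% of genes.

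After 6 h of TMG edgeR called 0 of 8 genes, with 2 at an unadjusted p under 0.05, against 6.03% of 12103, and DESeq2 called 0. SMG1 stood at 127, 155 and 170 CPM in DMSO and 158, 179 and 187 CPM in TMG (0.22, edgeR adjusted p = 0.145), which overlap. With the GC trend removed it passed, at 0.20 (edgeR adjusted p = 0.0424), as did 10.1% of genes. SMG9 stood at 67.4, 57.8 and 58.3 CPM in DMSO and 55.7, 55.1 and 53.0 CPM in TMG (-0.16, edgeR adjusted p = 0.184), with all TMG libraries lower, as in 17.6% of genes. UPF2 stood at 65.6, 69.3 and 69.5 CPM in DMSO and 73.8, 74.8 and 70.8 CPM in TMG (0.10, edgeR adjusted p = 0.36).

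The interaction of drug and treatment was above 0 at 6 h for 3 of 8 genes: SMG9 by 1.02, UPF1 by 0.95 and SMG6 by 0.73 on the log2 scale (edgeR adjusted p 0.0175, 0.0256 and 0.0432), against 19.9% of 12563 genes called and 16.9% called higher. This count ran from 0 to 7 as single libraries were left out: it was 0 without OSMI-2 library b, TMG experiment DMSO library a or TMG library b or c, 1 without OSMI-2 library a, TMG experiment DMSO library c or TMG library a, and 7 without DMSO library a of the OSMI-2 experiment. In that last fit 75% of 12544 genes were called and 73% were higher. At 2 h edgeR called 0 of 8, with 2 at an unadjusted p under 0.05, against 0% of 12608.

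In DMSO alone, SMG1 passed as higher at 6 h than at 2 h in both experiments, though each call depended on which libraries were kept. In the OSMI-2 experiment SMG1 went from 21.5, 31.9 and 33.0 CPM to 107, 54.4 and 62.5 CPM. These CPM were scaled separately at each time, so they do not give the size of the change. With both times scaled and fitted together, the rise was 0.95 on the log2 scale (edgeR adjusted p = 0.0155). SMG1 was the only one of the 8 to pass, against 18.5% of 12343 genes called and 4.59% called higher. Without DMSO 2 h library a this rise did not pass (0.82, edgeR adjusted p = 0.132). Without DMSO 6 h library a it was 0.63 (edgeR adjusted p = 0.0282), and UPF3B then fell by 0.74 (edgeR adjusted p = 0.005), in a fit that called 37.2% of genes.

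In the TMG experiment 5 of the 8 changed over time in DMSO, against 45.9% of 12294 genes (16.3% higher, 29.6% lower). Here too the CPM were scaled separately at each time, and the changes come from a fit of both times together. SMG9 went from 48.0, 47.6 and 45.0 CPM to 67.4, 57.8 and 58.3 CPM, a rise of 0.35 (edgeR adjusted p = 0.000826). SMG6 went from 61.9, 61.9 and 62.5 CPM to 51.2, 42.3 and 48.4 CPM, a fall of -0.43 (edgeR adjusted p = 0.000104). The libraries at 2 h are tightly grouped in both genes. SMG1 rose by 0.31, UPF2 by 0.19 and UPF3B by 0.19 (edgeR adjusted p 0.00724, 0.0327 and 0.0391). The SMG1 libraries of the 2 times overlapped. Its call was lost without DMSO 2 h library a (0.23, edgeR adjusted p = 0.0588) or DMSO 6 h library c (0.21, edgeR adjusted p = 0.0967). The UPF2 and UPF3B calls were also lost with some single libraries left out. The count of 5 ran from 2 to 6 as single libraries were left out: it was 2 without DMSO 2 h library a or DMSO 6 h library c, and 3 without library b of either time.

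The exon bins of the 8 genes moved little with either drug. Limma tests of each bin against its gene called 0 of 159 bins at OSMI-2 2 h (5 at an unadjusted p under 0.05), 1 of 183 at OSMI-2 6 h, 0 of 193 at TMG 2 h (17 at an unadjusted p under 0.05) and 0 of 192 at TMG 6 h (13 at an unadjusted p under 0.05). The backgrounds were 0%, 2.35% (1.84% lower), 0.0173% and 0.0101% of bins. The authors' deposited test called 7 bins at OSMI-2 6 h: 1 in SMG5, 1 in SMG6, 3 in SMG9 and 2 in UPF1, beside 4.08% of the 147825 exon bins with an adjusted p in the authors' deposited table. The bin called here, SMG5_E013, has 130 bases at chr1:156234105-156234234 and a mean of 12 counts. It lies under the mean of 50 counts set for naming bins and was chosen after its values were seen. It held 0.0983%, 0.0592% and 0.0555% of SMG5 counts in DMSO and 0.0189% and 0.0232% in OSMI-2 (-1.60, SE 0.361, limma adjusted p = 0.035), and the authors' deposited table gives -1.66. Its call was lost without DMSO 6 h library a or b, or without either OSMI-2 library (limma adjusted p 0.0745 to 0.249).

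Over time in DMSO, 7 of 168 bins passed in the OSMI-2 experiment, against 6.65% of bins, and 4 of 194 in the TMG experiment, against 3.9%. The clearest was UPF1_E001, the 505-base first bin of UPF1 at chr19:18942745-18943249. It held 3.39%, 2.11% and 3.04% of UPF1 counts in DMSO 2 h of the TMG experiment and 1.55%, 1.12% and 1.34% at 6 h, groups that do not overlap (-1.07, SE 0.134, limma adjusted p = 0.000124). It passed with each library left out in turn. SMG5_E014 (-0.15) and SMG9_E003 (-0.26) fell slightly in that experiment.

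In the OSMI-2 experiment the bins of UPF1 moved at 2 places. UPF1_E018, the exon just downstream of the detained intron, held 3.40%, 3.29% and 3.48% at 2 h and 4.11%, 3.89% and 3.94% at 6 h (0.23, limma adjusted p = 0.0315). Its call was lost with each library left out in turn (limma adjusted p 0.0535 to 0.138). UPF1_E028, the last bin, held 29.2%, 22.7% and 24.1% and then 19.4%, 18.7% and 20.7% (-0.36, limma adjusted p = 0.0115). SMG6_E022 rose (0.39), and SMG1_E001 (-0.26), SMG5_E001 (-0.39) and SMG5_E003 (-0.23) fell. SMG1_E001 and SMG5_E001 are, like UPF1_E028, the 3′-most bins of their genes. The 2 called bins not yet named, UPF3A_E005 in the OSMI-2 experiment and UPF2_E024 in the TMG experiment, had means of 11 and 13 counts and were chosen after their values were seen. Each of the 7 calls of the OSMI-2 experiment was lost with at least 1 library left out. Their count was 0 without DMSO 6 h library a (2.69% of all bins called), 3 without DMSO 6 h library b, 4 without DMSO 2 h library a or c or DMSO 6 h library c, and 19 without DMSO 2 h library b (9.35% of all bins called). In the TMG experiment the count was 1 without DMSO 2 h library b or c or DMSO 6 h library b, 2 without DMSO 2 h library a and 7 without DMSO 6 h library a (6.49% of all bins called).

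The share of counts in the 3′-most bin differed between the experiments in general: its median over 7757 genes was 16.8% to 21.4% in the OSMI-2 experiment and 14.1% to 15.1% in the TMG experiment. For SMG1 it was 45.1% to 63.6% and 23.0% to 26.7%. For UPF1 it was 18.7% to 29.2% and 13.4% to 14.8%. The part of this in the gene values was not tested. Against the 2 neighbouring exon bins in place of the whole gene, all 7 introns still fell at OSMI-2 6 h, by 1.44 to 2.55 on the log2 scale.

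**Figure D5:**
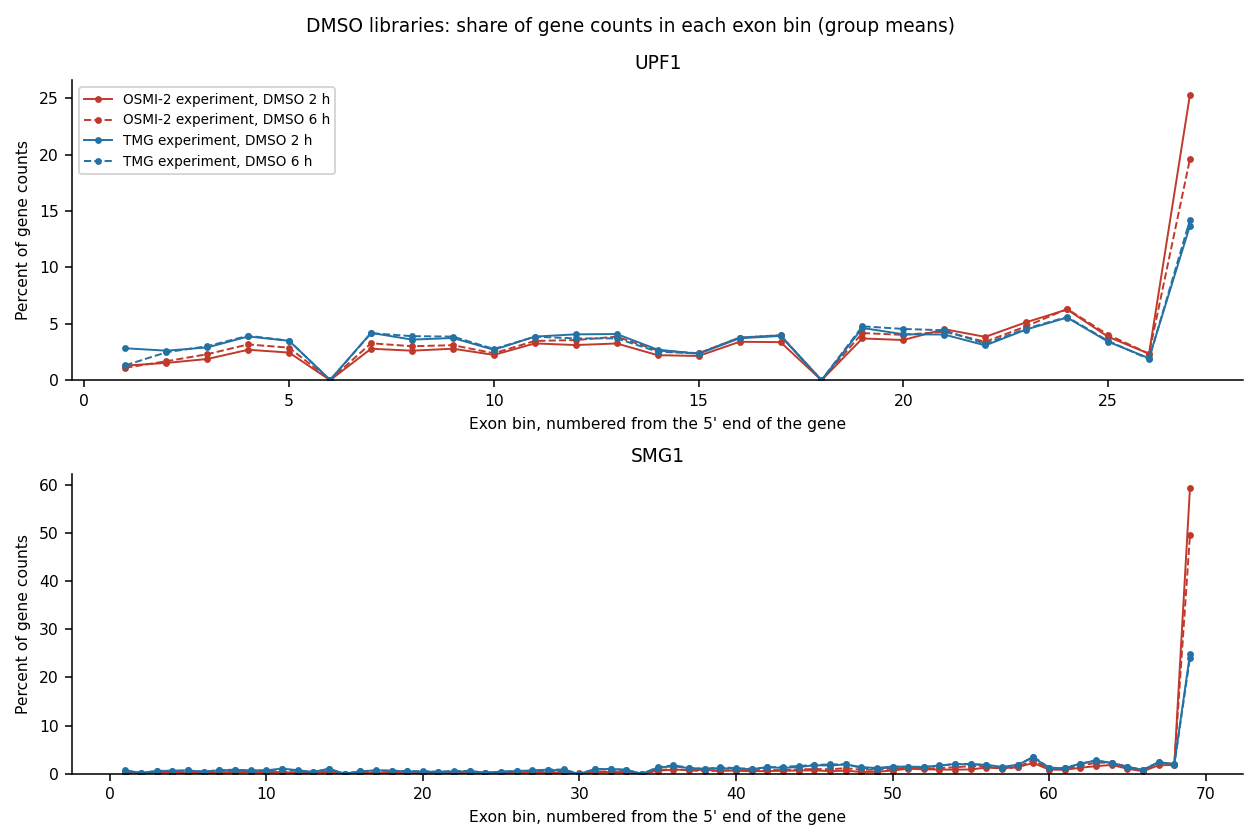
Share of gene counts in each exon bin (vertical axis, percent) of UPF1 and SMG1, numbered from the 5′ end, as means of the 4 DMSO groups. The last bin of SMG1 averages 59.3% and 49.6% in the OSMI-2 experiment at 2 h and 6 h, above the TMG experiment, and the first bin of UPF1 is highest in DMSO 2 h of the TMG experiment.

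Genes that work with the 8 were read from 4 lists. At OSMI-2 2 h and 6 h edgeR called 0% and 4.94% of all genes. At TMG 2 h and 6 h it called 7.91% (1.25% higher) and 6.03%. A count of 0 in lists this short is near what those shares give. Of 8 further decay factors (SMG8, DHX34, NBAS, RUVBL1, RUVBL2, GNL2, MOV10 and ICE1), 1 passed with TMG at 2 h, ICE1 (listed as KIAA0947, 0.19, edgeR adjusted p = 0.024). That call was lost without DMSO 2 h library a or b, without TMG library b or c, and in a fit of all libraries. In the other 3 drug comparisons edgeR and DESeq2 called 0 of 8, with 0 at OSMI-2 2 h, 3 at OSMI-2 6 h and 2 at TMG 6 h at an unadjusted p under 0.05. Of 7 genes of the exon junction complex and its partners, edgeR and DESeq2 called 0 in each of the 4 drug comparisons, with 1 at OSMI-2 6 h, 2 at TMG 6 h and 0 at 2 h of either drug at an unadjusted p under 0.05. Of 10 tested genes of translation termination and mRNA decay, 2 rose at OSMI-2 6 h and none fell, against 2.57% of genes called higher. They were GSPT1, a termination factor, at 149 ± 32.8 CPM (SD, n = 3) in DMSO and 309 ± 8.68 CPM (SD, n = 2) in OSMI-2 (1.05, edgeR adjusted p = 0.0301), and PABPC1, the poly(A)-binding protein, at 753 ± 24.7 and 1639 ± 190 CPM (1.12, edgeR adjusted p = 0.0413). Neither passed with a scaling on genes alone, or without any 1 of the other 4 libraries. Without DMSO 6 h library a, 6 of the 10 rose, in the fit where 34.2% of all genes did. Between DMSO at 2 h and 6 h of the OSMI-2 experiment, GSPT1 fell (-1.11, edgeR adjusted p = 0.0051). PABPC1 changed by -0.56 there and did not pass (edgeR adjusted p = 0.143). That comparison shares its DMSO 6 h libraries with the OSMI-2 6 h comparison, so the values are only set side by side. In the other 3 drug comparisons edgeR and DESeq2 called 0 of these 10, with 0 at OSMI-2 2 h, 2 at TMG 2 h and 1 at TMG 6 h at an unadjusted p under 0.05.

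Of 10 tested genes known as targets of nonsense-mediated decay, edgeR and DESeq2 called 0 in each drug comparison, with 4 at OSMI-2 6 h, 2 at TMG 6 h, 1 at TMG 2 h and 0 at OSMI-2 2 h at an unadjusted p under 0.05. A count of 0 in 10 genes is near the shares of all genes called, 0% to 7.91% over these comparisons. At OSMI-2 6 h the list medians were 0.18 for the further factors, 0.35 for the exon junction complex, 0.35 for the termination and decay genes and 0.13 for the targets, beside 0.15 for all genes tested. Over time in DMSO of the TMG experiment, 6 of the 10 targets rose and 1 fell, against 45.9% of genes changed (16.3% higher, 29.6% lower). ATF3, a stress-induced transcription factor, rose by 1.0 and DDIT3 by 0.74, and UPP1 fell by 1.03 on the log2 scale. In the same comparison 1 of the 8 further factors rose and 2 fell. Of the 7 exon junction genes 5 fell there, among them RNPS1 (-0.33) and MAGOH (-0.25), against 29.6% of genes called lower. In the OSMI-2 experiment 3 of these 7 fell over time in DMSO, MAGOHB (-0.95) and RBM8A (-0.86) among them, and 1 of the 10 targets fell, UPP1 (-0.98), against 18.5% of genes called and 14% called lower. Among the 10 termination and decay genes XRN1, the 5′ exonuclease, rose over time in both experiments (1.06 and 0.48). It was the only one to rise in either, against 4.59% and 16.3% of genes called higher. GSPT1 (-1.11) and ETF1 (-0.74) fell over time in the OSMI-2 experiment, against 14% of genes called lower. PABPC1 (-0.28) fell in the TMG experiment, against 29.6%.

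As a reading of the drugs' own targets, OGT and MGEA5 mRNA fell by 1.85 and 1.93 at OSMI-2 6 h, and at TMG 6 h OGT fell by 0.48 while MGEA5 rose by 0.72, all on the log2 scale. Both passed with edgeR in these 2 comparisons, against 4.94% and 6.03% of all genes. Between DMSO at 2 h and 6 h, 1 of the 2 genes passed as higher in each experiment, with the same DMSO 6 h libraries.

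The gene whose level ran most like each member was found over 23 libraries and 11245 genes by Pearson's r on log2 CPM. It was CCNF for UPF1 (0.996), ZCCHC6 for UPF2 (0.997), NUPL2 for UPF3A (0.949), NASP for UPF3B (0.931), GOLGA4 for SMG1 (0.986), CALM3 for SMG5 (0.995), PHRF1 for SMG6 (0.987) and MVD for SMG9 (0.995). These libraries share the GC and 3′ differences between the experiments given above, so r is a description only, with no test.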

How the data were processed

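Polyadenylated RNA from HEK293T cells was made into stranded libraries, per the labels' protocols. The deposited tables hold raw read counts per bin (exon part or detained intron) and library, 1 table per comparison, with the authors' own log2 fold changes, p-values and adjusted p-values per the file headers. The submitters' processing notes name STAR and hg19. The counting tool, strand setting and treatment of reads that touch several bins are not given in the sources used here.

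Bin counts were summed per gene. CPM used TMM scaling over genes and detained introns together within each comparison, so CPM of different tables were scaled separately. Genes and introns were tested with edgeR 4.0.16 (quasi-likelihood, filterByExpr, R 4.3.3). Bins relative to their gene were tested with limma 3.58.1 on log2((bin + 1)/(gene + 1)) for bins with a mean of at least 10 counts. Tests were two-sided with Benjamini-Hochberg adjustment over all features, at 0.05. DESeq2 1.42.0, other scalings, filters and pseudocounts, and leaving out each library were alternatives. Removal of the GC trend, neighbouring exon bins as denominator and all alternatives for the DMSO comparisons were added after seeing the data. The scripts were tested on simulated data. All 8 genes and 7 introns are named, and of the exon bins called, those whose groups do not overlap and whose mean count is 50 or more. Of each list at most 2 rises and 2 falls are named. The members and lists were chosen with earlier results of these data known. Columns carry letters, not replicate numbers. One gene of the list of further decay factors is not reported here, and the list's counts leave it out.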

Additional observations from a re-analysis of the deposited data

Results flagged for a closer look

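The interaction test was the OSMI-2 effect minus the TMG effect at the same time. At 6 h it called 3 of 8 genes, 5 of 7 introns by CPM and 7 of 7 introns relative to their genes. Over all features it called 19.9% of genes, 74.2% of introns by CPM and 85.6% of introns relative to their genes. The intron counts are near those shares. Among the genes the difference was 0.73 for SMG6, 1.02 for SMG9 and 0.95 for UPF1 on the log2 scale (edgeR adjusted p 0.0432, 0.0175 and 0.0256). Without TMG library b none of these gene calls held (edgeR adjusted p 0.103, 0.052 and 0.0705). By CPM the intron difference was -2.34 for SMG1_E014, -1.51 for SMG5_E004, -0.93 for SMG9_E008, -1.73 for UPF1_E017 and -2.56 for UPF2_E020. Relative to the gene it was -2.16 for SMG1_E014, -2.01 for SMG5_E004, -1.26 for SMG6_E004, -1.45 for SMG6_E006, -2.0 for SMG9_E008, -2.66 for UPF1_E017 and -2.59 for UPF2_E020. The CPM value of SMG9_E008 was -0.47 without DMSO 6 h library a of the OSMI-2 experiment (edgeR adjusted p = 0.163), and that of SMG6_E004 relative to its gene was -1.09 without OSMI-2 library a (limma adjusted p = 0.0762). The intron values include the DMSO 6 h libraries of the OSMI-2 experiment. In these libraries detained introns took 0.756% to 1.21% of counts, against 0.232% to 0.328% in the other groups of that experiment. The part of this in the differences was not tested. No group had 4 or more libraries, so single libraries were not screened as outliers.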

How the results depend on the processing

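No paired analysis was possible because the columns carry letters and no replicate numbers from the labels. The fall of the 7 introns relative to their genes at OSMI-2 6 h held with each library left out (7 of 7 each time). With a mean count of at least 50, only 3 introns were tested and 3 passed. Scaling on introns alone, which centres the median intron, called 0 of 7 at OSMI-2 6 h and turned the sign of SMG5_E004 (0.23), SMG6_E004 (0.66), SMG9_E008 (0.40) and UPF1_E017 (0.076). The genes called at OSMI-2 6 h were 0, but 2 with the GC trend removed and 4 in a fit of all libraries. Of all genes, 4.94% passed in the main fit and 28% after GC removal. The fit of all libraries called 5022 of 12716 genes as raised and 959 as lowered. Neither the 2 nor the 4 of these 8 genes is therefore read as an excess over the background. At TMG 2 h the genes called were 1, but 0 with the GC trend removed and 0 in a fit of all libraries. Scaling on genes alone gave 2. Of all genes, 7.91% passed in the main fit and 0 in the fit of all libraries. GC removal left 78 of 12361 genes raised and 595 lowered. The scaling on genes alone gave 247 of 12365 raised and 521 lowered. At TMG 6 h the genes called were 0, but 1 with the GC trend removed. Of all genes, 6.03% passed in the main fit and 10.1% after GC removal. Exon bins called at OSMI-2 6 h were 1, but 7 in the authors' deposited test and 0 in a fit of all libraries or with a mean of at least 50 counts. The causes were not tested.

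With single libraries left out, the calls ranged from 0 to 5 (genes, OSMI-2 6 h), 0 to 2 (genes, TMG 2 h), 0 to 1 (introns relative to gene, TMG 6 h), 0 to 1 (exon bins, OSMI-2 6 h) and 0 to 7 (interaction of genes, 6 h). The SMG1 gene interaction at 6 h, -0.13 with all libraries, ranged from -0.32 to 0.66, the latter without DMSO 6 h library a of the OSMI-2 experiment (edgeR adjusted p = 0.00297). For DMSO over time they ranged from 0 to 2 (genes) and 0 to 19 (exon bins) in the OSMI-2 experiment, and from 2 to 6 (genes), 0 to 2 (introns), 0 to 1 (introns relative to gene) and 1 to 7 (exon bins) in the TMG experiment. Of single values under all alternatives, 1574 kept direction and side of the threshold, 83 changed sign with no call in either fit, 89 lost and 24 gained a call, and 5 turned sign with a call in 1 of the fits. Over all genes at OSMI-2 6 h, the split of higher to lower calls was 321 to 296, but 33 to 481 with TMM over genes only, 709 to 234 with median-of-ratios scaling, 2940 to 557 with the GC trend removed and 5022 to 959 in a fit of all libraries. Low intron counts limit SMG1_E014 and SMG6_E006 most.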
